A study of Homo sapiens with 3 samples.

Results

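The cells described here are the vimentin-positive cells among cells recovered from the bottom channel of a stretched organ-on-chip. By the sample labels they are HCT116 cells, a human colorectal carcinoma line of epithelial origin, carrying a histone H2B-GFP label. A cell belongs to them if its barcode held at least 10000 UMIs (unique molecular identifiers, 1 per captured transcript), at most 20% mitochondrially encoded UMIs and 2 or more VIM UMIs. Of 1550 bottom cells that passed the depth and mitochondrial limits, 159 met the rule (10.3%, exact 95% binomial interval 8.79 to 11.9). Among the 159 were 6 cells whose markers, given below, went against the epithelial label. Another 1205 cells had 0 VIM UMIs and form the comparison class, and 186 cells with 1 VIM UMI belong to neither class. All 3 libraries of the series held 54788 barcodes, of which 20182 passed the same limits.

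The chip has 2 channels. Cells of the top channel were exposed to peristalsis-like stretch for 6 days or were not stretched, and stretched cells that had invaded were collected from the bottom channel. GFP-labelled cells were detached with trypsin and sorted, and each group is 1 droplet 3′ library: stretched bottom, stretched top and not stretched top. By their sample labels all of the groups are 1 cell line with 1 label. Since each group has 1 library and cells of a library are not replicates, no test was made. Differences are described by their size, and every interval below is a 95% interval for counting error only.

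Vimentin, encoded by VIM (ENSG00000026025, chromosome 10, 17228259 to 17237593, hg38), forms the intermediate filaments of mesenchymal and endothelial cells, whereas simple epithelia build theirs from keratins 8, 18 and 19. In an epithelial-mesenchymal transition, repressors of the ZEB, SNAI and TWIST families lower adhesion and junction genes such as CDH1 (E-cadherin), while GRHL2, ELF3, ESRP1 and related factors maintain the epithelial programme. Carcinoma cells often stop part of the way, keeping keratins while gaining vimentin.

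ZEB1 binds E-box elements with the letters CAGGTG, which read as CACCTG on the other strand, so the proximal promoters of the VIM gene and of 5 genes that were lower in the VIM-positive cells are shown. Each is the 250 bases before the transcription start as listed by RefSeq on GRCh38.p14, written 5′ to 3′ on the gene's strand, with matches to either form in capitals. These were taken from genes with 1 listed start, after their values were seen.
VIM: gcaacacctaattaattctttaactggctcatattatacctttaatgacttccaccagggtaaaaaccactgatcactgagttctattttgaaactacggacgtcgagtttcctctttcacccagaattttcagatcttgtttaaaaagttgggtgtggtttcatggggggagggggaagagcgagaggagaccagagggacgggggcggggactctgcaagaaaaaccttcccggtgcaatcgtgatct
FXYD3: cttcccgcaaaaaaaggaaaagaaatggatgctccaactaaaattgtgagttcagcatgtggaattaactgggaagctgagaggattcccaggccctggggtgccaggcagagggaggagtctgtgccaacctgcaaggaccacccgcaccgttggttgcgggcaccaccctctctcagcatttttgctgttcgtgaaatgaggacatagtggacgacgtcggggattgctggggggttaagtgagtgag
ELF3: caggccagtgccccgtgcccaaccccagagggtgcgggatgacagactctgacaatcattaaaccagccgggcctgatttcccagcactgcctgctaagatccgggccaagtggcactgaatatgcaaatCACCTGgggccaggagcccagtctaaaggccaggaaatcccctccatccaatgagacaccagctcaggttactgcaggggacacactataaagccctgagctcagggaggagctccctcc
CLDN4: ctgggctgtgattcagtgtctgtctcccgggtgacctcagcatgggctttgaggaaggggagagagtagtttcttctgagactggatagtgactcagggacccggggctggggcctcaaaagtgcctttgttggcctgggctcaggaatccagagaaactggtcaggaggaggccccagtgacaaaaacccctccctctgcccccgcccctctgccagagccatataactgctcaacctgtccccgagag
S100A14: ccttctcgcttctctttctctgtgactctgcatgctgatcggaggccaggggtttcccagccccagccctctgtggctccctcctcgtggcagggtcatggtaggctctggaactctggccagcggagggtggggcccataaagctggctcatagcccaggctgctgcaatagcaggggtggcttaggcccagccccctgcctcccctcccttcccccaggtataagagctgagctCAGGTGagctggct
MACC1: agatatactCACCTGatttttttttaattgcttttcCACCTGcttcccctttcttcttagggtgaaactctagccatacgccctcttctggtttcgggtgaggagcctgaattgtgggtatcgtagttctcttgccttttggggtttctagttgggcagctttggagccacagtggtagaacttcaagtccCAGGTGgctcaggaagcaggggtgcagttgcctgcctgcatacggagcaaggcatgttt
The VIM window (chr10:17227991-17228240, plus strand), the FXYD3 window (chr19:35117750-35117999, plus strand) and the CLDN4 window (chr7:73830746-73830995, plus strand) held 0 matches. The ELF3 window (chr1:202010337-202010586, plus strand) held 1, which began at −120 from the start. The S100A14 window (chr1:153616326-153616575, minus strand) held 1, at −14. The MACC1 window (chr7:20217385-20217634, minus strand) held 3, at −241, −214 and −59. Of 27305 RefSeq promoter windows of the same length, 4781 held at least 1 match (17.5%, 17.1 to 18). A match is a run of letters only, and binding was not measured.

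VIM counts in the bottom library were low in most cells and very high in a few. Among the 159 cells, 70 had 2 VIM UMIs, 39 had 3, and 12 had 10 or more. The highest values were 521, 398, 165 and 124 UMIs. Near the limits of the rule, 1 of 14 cells with 9000 to 10000 UMIs and 1 of 21 cells with 10000 to 11000 UMIs had 2 or more VIM UMIs. Between 15% and 20% mitochondrial UMIs the count was 1 of 43 cells, and between 20% and 25% it was 0 of 19.

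A group of 6 cells stood apart from the rest and went against the epithelial label. They were singled out after their values were seen, as the VIM-positive cells that had UMIs of both PECAM1 and CDH5, the adhesion molecules that define endothelium. Their VIM counts were 521, 398, 165, 124, 42 and 18 UMIs, which came to 61.9% of all 2050 VIM UMIs in the 1550 cells. Each detected 14 to 19 of 19 endothelial list genes, and each had 0 UMIs of EPCAM and of CDH1. In pooled UMIs the endothelial list stood at 4887 CPM (a gene's share of the pooled UMIs, scaled to 1000000) in these cells, at 107 CPM in the other 153 VIM-positive cells and at 125 CPM in the VIM-negative cells. EGFL7 made up 103 of the 107 CPM, so the endothelial genes other than EGFL7 were nearly silent in the 153. Among those 153 cells PECAM1 was detected in 1 cell, CDH5 in 0 cells and EPCAM in 152.

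These libraries hold no GFP feature, so whether the 6 cells carried the label could not be read from the counts. Without them VIM stood at 10.4 CPM in the bottom library (9.70 to 11.2), and with them at 27.2 CPM (26.1 to 28.4). In cells of the same filter, VIM was at 8.33 CPM in the library from the stretched top channel and at 5.91 CPM without stretch. Every result below is given for the 153 cells, and for all 159 where the 6 move it.

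**Figure D1:**
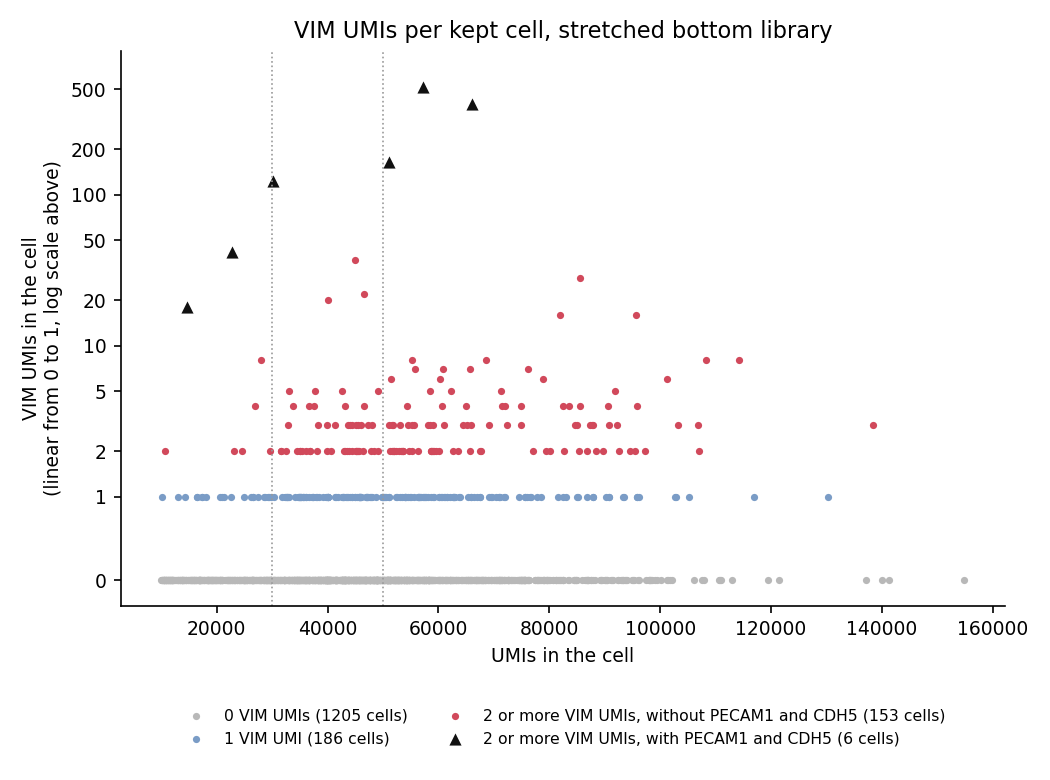
VIM UMIs (vertical axis, linear from 0 to 1 and logarithmic above) against all UMIs of the cell (horizontal axis), 1 point per bottom cell, with dotted lines at the band limits of 30000 and 50000 UMIs. The 6 cells with PECAM1 and CDH5 UMIs (triangles) reach 521 VIM UMIs, and the other VIM-positive cells reach 37.

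Detection of VIM depends on depth, and VIM-positive cells were deeper. The median was 54777 UMIs in the 159 cells and 45035 in the VIM-negative cells. Comparisons were therefore made within bands of 10000 to 30000, 30000 to 50000 and over 50000 UMIs, which held 8, 52 and 99 VIM-positive cells and 279, 456 and 470 VIM-negative ones. Without the 6 endothelial-marker cells the bands held 6, 51 and 96. In the upper bands the medians were close: 43042 against 41378 UMIs in the middle band and 65662 against 63306 in the top band. They were further apart in the lowest band, at 23794 against 19574 UMIs. Without the 6 endothelial-marker cells the VIM-positive medians were 25668, 43134 and 65780 UMIs from the lowest band up. The lowest band rests on 142858 UMIs from 6 cells, so values for single genes are given for the upper bands or for all bands pooled. Median mitochondrial shares were 5.6% against 7.81% in the lowest band, 4.10% against 4.33% in the middle band and 3.29% against 3.61% in the top band.

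After each cell was thinned to 10000 UMIs, 7.77% of the 1544 bottom cells other than the 6 had a VIM UMI (6.49 to 9.22). The corresponding share was 6.66% in the stretched top library (6.16 to 7.2) and 4.90% in the not stretched top library (4.47 to 5.35). Unthinned shares were 22%, 9.45% and 7.69% at median depths of 46528, 14031 and 15414 UMIs. The thinned interval of the bottom cells overlaps that of the stretched top and lies above that of the not stretched top. No cell type in these libraries is free of VIM by definition, so no background share was available, and free RNA as a source of single VIM UMIs was not tested.

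Epithelial genes were lower in the VIM-positive cells, and their list had the median farthest from 0 among the 33 lists read. A gene was called when its log2 ratio, taken after 1 CPM was added to both classes and averaged over the 3 bands, reached 1.5-fold with the same sign in every band. It was tested only if it had at least 10 CPM in either class in each band. Of 22 epithelial list genes 14 were tested, and 11 were called lower and 0 higher in the 153 cells. The 11 were EPCAM, CDH1, CLDN4, CLDN7, OCLN, ELF3, GRHL2, ESRP1, ST14, PRSS8 and SPINT1. The median log2 ratio of the 14 was −1.35, and that of all genes tested was −0.01. Among all 8043 genes tested, 393 were called lower (4.89%) and 142 higher (1.77%). With the lowest band also left out, the same 11 genes were lower and the median was −0.89, against a background of 188 lower (2.33%) and 107 higher (1.32%) of 8084 genes. CLDN3, TJP1 and MARVELD2, the remaining tested genes of the list, were not called.

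EPCAM (ENSG00000119888), an adhesion protein of epithelial cells encoded on chromosome 2 (47345158 to 47387601), stood at 305 CPM in the 153 cells against 549 CPM in VIM-negative cells, 2.15-fold lower in the middle band (1.98 to 2.35) and 1.61-fold lower in the top band (1.54 to 1.68). EPCAM UMIs were present in 152 of 153 cells, so nearly all of the VIM-positive cells still had the marker. In the 6 endothelial-marker cells it was at 0 of 242060 UMIs, but other epithelial genes were seen there: CLDN7 had UMIs in 4 of the 6, S100A14 in 3 and KRT18 in all 6.

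CDH1 (ENSG00000039068, chromosome 16, 68737225 to 68835548), the adhesive core of the adherens junction, was further reduced. It stood at 7.43 CPM in the 153 cells (5.77 to 9.41) against 30.5 CPM in VIM-negative cells. The ratio was 6.72-fold lower in the middle band (3.51 to 14.8) and 3.07-fold lower in the top band (2.35 to 4.07). In cells thinned to 10000 UMIs, CDH1 was detected in 3.92% of VIM-positive and 23.7% of VIM-negative cells, and unthinned in 28 of 153 and 668 of 1205. The thinned intervals for counting error were 1.45 to 8.34 and 21.3 to 26.2.

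The claudin CLDN7, a strand protein of tight junctions, was at 190 against 429 CPM, which is 2.65-fold lower in the middle band and 2.12-fold lower in the top band. For CLDN4 the values were 122 against 281 CPM, and for OCLN, which encodes occludin, 17.1 against 36.4 CPM. Not all junction genes passed the threshold: CLDN3, another claudin, and TJP1, a scaffold of the tight junction, were short of 1.5-fold in these cells.

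Regulators of the epithelial programme were among the strongest differences. GRHL2, a grainyhead transcription factor that activates CDH1 and other junction genes, was at 2.51 CPM (1.59 to 3.77) against 20.1 CPM. It was detected in 19 of 153 VIM-positive and 574 of 1205 VIM-negative cells, and was 22.2-fold lower in the middle band (6.10 to 184) and 5.41-fold lower in the top band (3.50 to 8.81). ELF3, an epithelial ETS factor whose promoter window is printed above, was at 7.86 against 29.6 CPM and 3.87-fold lower in the top band (2.89 to 5.29). ESRP1, the splicing regulator of epithelial isoforms, was at 26.2 against 54.3 CPM and 2.02-fold lower in the top band (1.73 to 2.37).

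The epithelial list also holds genes of membrane proteases and an inhibitor. ST14, which encodes matriptase, was at 22.7 against 63.8 CPM, and its inhibitor SPINT1 was at 52.5 against 91.6 CPM. PRSS8, the prostasin gene, was at 7.54 against 16.4 CPM. In the top band these 3 genes were 2.44-fold (2.09 to 2.87), 1.57-fold (1.41 to 1.76) and 2.16-fold lower (1.61 to 2.95). In the separate protease and matrix list 2 of 14 tested genes were called lower, CTSL and ST14 (background 4.89%), and without the lowest band ST14 alone (background 2.33%).

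Cell by cell, the epithelial list took a lower share of the UMIs in most VIM-positive cells. Its median was 854 CPM in the 153 cells, with a range of 210 to 2676, and 1725 CPM in the 1205 VIM-negative cells, with a range of 177 to 13317. In the middle band the medians were 783 against 1768 CPM and in the top band 900 against 1603 CPM. The distributions overlapped: 85 VIM-negative cells (7.05%, 5.67 to 8.65) lay below the median of the VIM-positive cells.

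**Figure D2:**
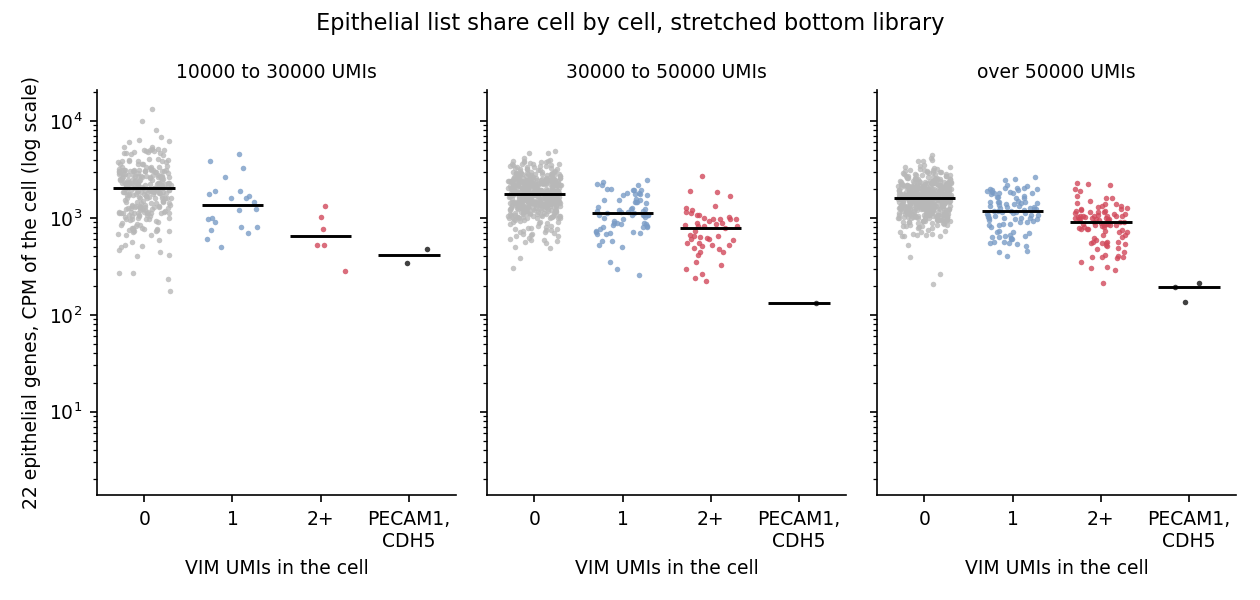
Summed share of the 22 epithelial list genes in each bottom cell (CPM of the cell, log scale), by VIM UMIs of the cell and UMI band, with bars at the medians. In every band the median falls from cells with 0 VIM UMIs to cells with 2 or more, from 1768 to 783 CPM in the middle band, and the clouds overlap.

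The lowest ratios were not limited to genes of the epithelial list. Among the tested genes reported here, the 15 with the lowest mean ratio in the 159 cells were FXYD3, TNNC1, GRHL2, SULT6B1, MACC1, MAL2, CRYBG1, CITED1, S100A14, ESRP1, SLC1A3, CDH1, SMIM14, CACNB4 and AP1M2. Of these, GRHL2, ESRP1 and CDH1 belong to the epithelial list. Several had 0 UMIs in the 6 cells of the lowest band, so their order by mean ratio is not firm.

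S100A14, a calcium-binding protein of epithelial cells, was the most abundant of these genes, at 90.8 CPM (84.7 to 97.1) against 451 CPM. It was 9.62-fold lower in the middle band (7.89 to 11.9) and 4.53-fold lower in the top band (4.21 to 4.89). MAL2, a membrane protein of apical transport, was at 22 against 160 CPM and 7.02-fold lower in the top band (6.03 to 8.21). FXYD3, a regulator of the sodium pump, was at 1.09 against 23.4 CPM, with UMIs in 9 of 153 and 420 of 1205 cells. MACC1, named for its association with colon cancer metastasis, was at 9.28 against 38.7 CPM and 3.84-fold lower in the top band (3.00 to 5.00). In the deeper bands, where each gene had the most UMIs, the direction was the same for all of these.

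More than 1 epithelial gene was undetected in many of the cells. CDH1, GRHL2, MAL2 and FXYD3, chosen after their values were seen, were all at 0 UMIs in 87 of 153 VIM-positive cells (56.9%, 48.6 to 64.8). The same held for 66 of 186 cells with 1 VIM UMI (35.5%, 28.6 to 42.8) and for 142 of 1205 VIM-negative cells (11.8%, 10.02 to 13.7). Over 50000 UMIs, where depth was nearly equal, the shares were 49.0%, 25.8% and 5.32%. All 4 genes were detected in 0 of 153 VIM-positive cells, exact interval 0% to 2.38%, and in 169 VIM-negative cells (14.02%). Taken singly, CDH1 had UMIs in 28 of the 153 cells, GRHL2 in 19, MAL2 in 42 and FXYD3 in 9, and whether their absences coincide beyond these shares was not tested.

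For EPCAM, S100A14 and CDH1, pooled over the bands, the differences were graded by the number of VIM UMIs, the count that the rule itself used. EPCAM stood at 549 CPM in cells with 0 VIM UMIs, 423 with 1, 344 with 2, 333 with 3, 250 with 4 to 15 and 76.0 with 16 or more. S100A14 fell over the same steps from 451 CPM through 211, 116, 109 and 46.9 to 2.53 CPM. For CDH1 the steps were 30.5, 17.6, 12.8, 6.0 and 1.65 CPM, with 0 UMIs in the last class. Cells with 1 VIM UMI, which the rule places in neither class, lay between the classes for all 3 genes.

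Within bands the steps were less even. In the top band EPCAM stood at 514 CPM with 0 VIM UMIs, 417 with 1, 373 with 2 and 286 with 3 or more. S100A14 in that band stood at 477, 227, 135 and 86.5 CPM. ZEB1 stood at 9.65, 23.4, 18.6 and 30.5 CPM, and its values with 1 and with 2 VIM UMIs overlapped in their intervals. In the middle band EPCAM stood at 571, 427, 286 and 243 CPM, and the intervals of the last 2 classes overlapped. ZEB1 there was at 13.7, 20.7, 39.1 and 31.7 CPM and CDH1 at 28.7, 13.8, 3.64 and 4.96 CPM, so neither kept its order between 2 and 3 or more VIM UMIs.

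**Figure D3:**
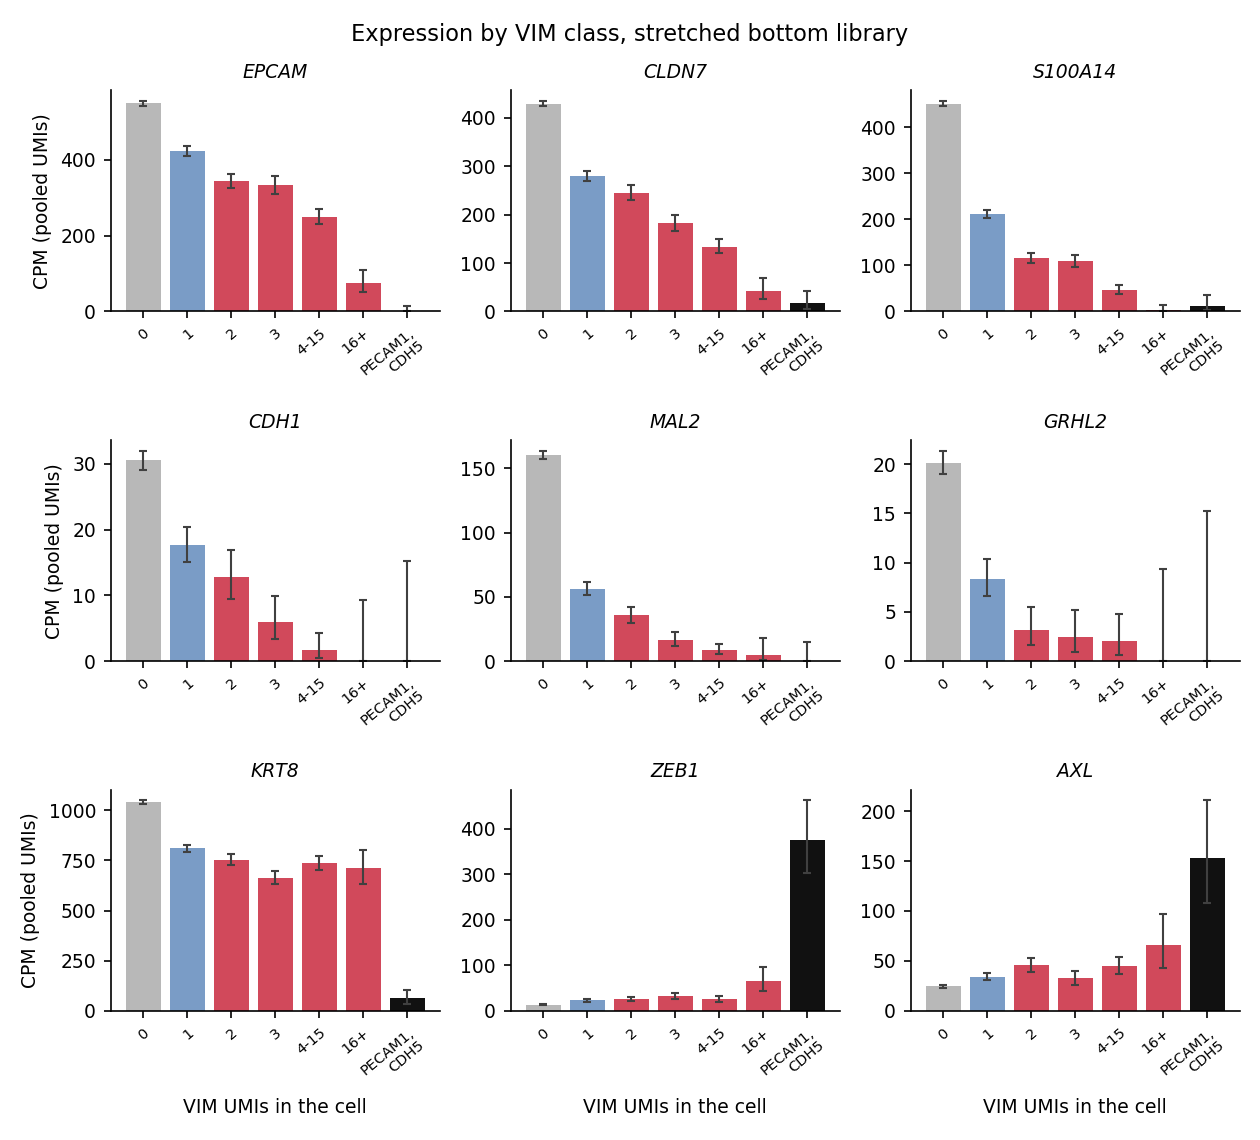
CPM from pooled UMIs (vertical axes, each from 0) of 9 genes in bottom cells grouped by VIM UMIs, with exact Poisson 95% intervals. The black bar is the 6 cells with PECAM1 and CDH5 UMIs, which are left out of the other classes. EPCAM falls from 549 CPM at 0 VIM UMIs to 76.0 CPM at 16 or more, KRT8 remains at or above 664 CPM, and ZEB1 rises from 13.5 to 65.8 CPM.

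The 6 cells with the most VIM UMIs outside the endothelial-marker group had 37, 28, 22, 20, 16 and 16. CDH1 and GRHL2 were at 0 UMIs in all 6, at 40051 to 95701 UMIs per cell. EPCAM had 5, 4, 2, 2, 11 and 6 UMIs in them, and KRT18 had 240, 79, 68, 82, 71 and 91. ZEB1 was present in each, with 1 to 11 UMIs. FN1, CDH2, PECAM1, CDH5, the fibroblast gene COL1A1 and the leukocyte gene PTPRC were at 0 in all 6.

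The keratins of the simple epithelial filament were lower by less than CDH1, CLDN4 and CLDN7, whereas KRT7 passed 1.5-fold in both upper bands. KRT8 was at 723 against 1040 CPM, 1.42-fold lower in the middle band and 1.43-fold lower in the top band. KRT18, its partner in the simple epithelial filament, was at 1198 against 1550 CPM, 1.08-fold lower in the middle band (1.04 to 1.12) and 1.39-fold lower in the top band (1.36 to 1.42). KRT19 was at 1070 against 1655 CPM, 1.57-fold lower in the middle band and 1.53-fold lower in the top band, and passed the threshold. KRT7 was at 9.83 against 22.4 CPM, with UMIs in 37 of the 153 cells, and was 2.56-fold lower in the top band (2.01 to 3.30). In the intermediate filament list, without VIM, 2 of 10 tested genes were called lower (KRT19 and KRT7) and 0 higher, with a median of −0.19, against the background of 4.89% lower. With the 6 endothelial-marker cells counted in, the 2 genes called lower were KRT8 and KRT19. The mean log2 ratio of KRT7 was then −0.13, beside −2.13 without them, and that of KRT8 was −0.62, beside −0.49. KRT7 was called higher in the 10000 to 30000 band of the not stretched top library. It was not called in that band of the stretched top. Every one of the 153 cells had KRT8, KRT18 and KRT19 UMIs. In the 6 endothelial-marker cells KRT18 had 24, 32, 19, 3, 5 and 1 UMIs and KRT8 had 3, 7, 4, 1, 0 and 0, and the part of free RNA in these counts was not tested.

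Among mesenchymal transition genes, ZEB1 and AXL were the members that were higher outside the endothelial-marker cells. Of 24 genes in that list 7 were tested in the 153 cells, and these 2 were called higher and 0 lower, with a median of 0.40, against a background of 1.77% higher. ZEB1 (ENSG00000148516, chromosome 10, 31318495 to 31529814), the repressor named above, was at 28.8 CPM (25.5 to 32.5) against 13.5 CPM. It was 2.60-fold higher in the middle band (1.98 to 3.38) and 2.69-fold higher in the top band (2.22 to 3.24). In the top band ZEB1 stood at 9.65 CPM in VIM-negative cells, so it met the 10 CPM minimum there only through the VIM-positive class. Thinned to 10000 UMIs, 26.1% of VIM-positive cells (19.4 to 33.9) and 12.7% of VIM-negative cells (10.9 to 14.7) had a ZEB1 UMI, and unthinned 101 of 153 and 349 of 1205 did.

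AXL, a receptor tyrosine kinase for GAS6, was at 42.6 against 24.5 CPM and 1.65-fold higher in the top band (1.44 to 1.90). CALD1, the actin-binding caldesmon, was at 93.3 against 91.5 CPM and did not differ beyond counting error (1.02-fold, 0.95 to 1.10). The other repressors were scarce: SNAI1 was at 8.74 against 10.2 CPM, TWIST1 at 2.73 against 1.39 CPM, and SNAI2 had 0 UMIs in the 153 cells and ZEB2 had 1. CDH2, which encodes N-cadherin, had 0 UMIs in both classes. FN1, which encodes fibronectin, had 11 UMIs in the 153 cells, at 1.20 against 2.19 CPM.

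With the 6 endothelial-marker cells counted in, the mesenchymal list looked different. Of 9 tested genes 5 were then called higher: ZEB1, FN1, SPARC, AXL and CALD1. FN1 rose from 11 to 239 UMIs, SPARC from 4 to 160, THBS1 from 22 to 470 and GNG11 from 0 to 312 when these cells were added. In the whole table, 216 of 8092 genes were called higher (2.67%) and 361 lower (4.46%) with all 159 cells. Of the 216 higher genes 91 were also called without the 6 cells, which is 42.1% of them and 64.1% of the 142. Of the 361 lower genes 273 were, which is 75.6% of them and 69.5% of the 393.

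The 15 highest genes of the 159 cells were GNG11, THBS1, EFEMP1, SPARC, IGFBP7, ARHGDIB, FN1, TM4SF1, PRSS23, DOCK4, MECOM, HSPG2, ZEB1, LAMB1 and CRIM1. Without the 6 cells 13 of these 15 fell short of the 10 CPM minimum in at least 1 band, CRIM1 was tested and not called, and ZEB1 was called higher. LAMB1, a laminin beta chain, was at 11.7 against 8.06 CPM in the 153 cells, 2.70-fold higher in the middle band (1.92 to 3.74) and 1.17-fold in the top band (0.85 to 1.59).

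**Figure D4:**
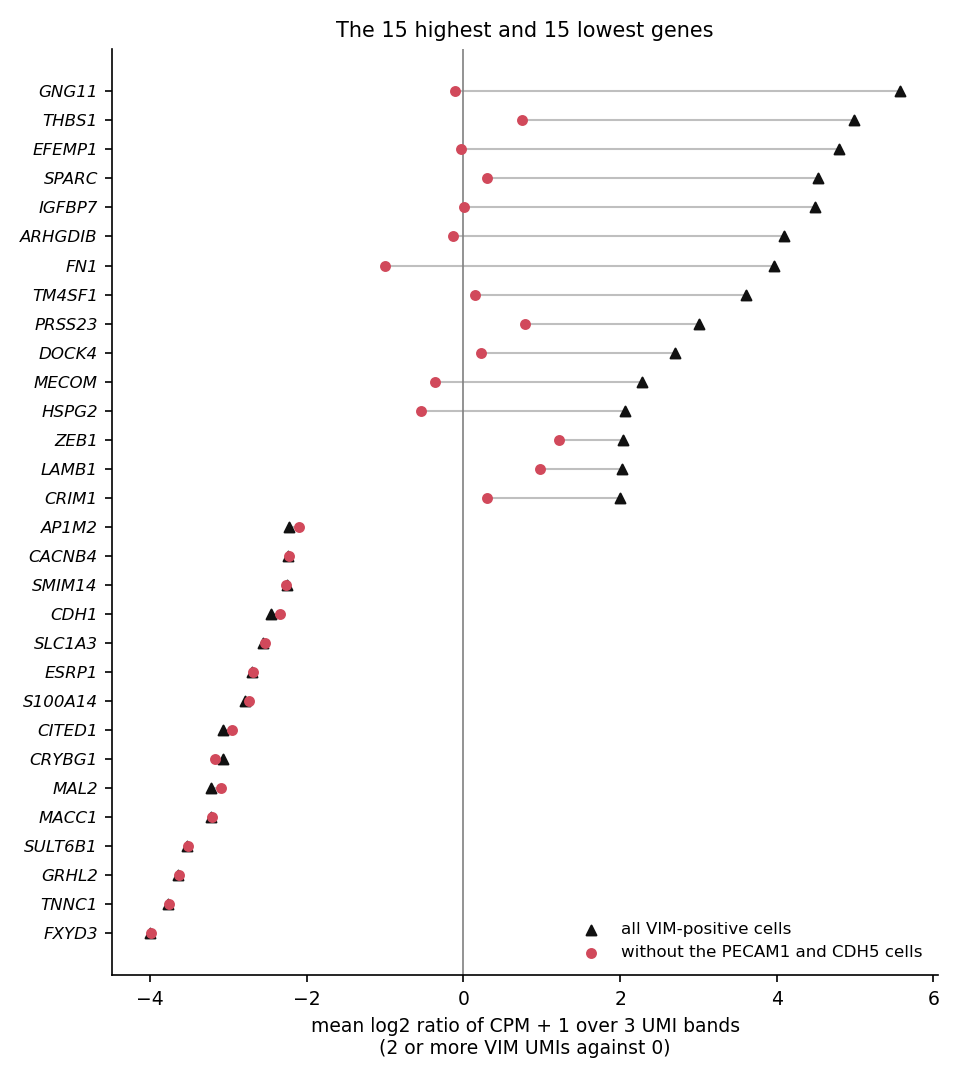
Mean over the 3 UMI bands of the log2 ratio (CPM plus 1), VIM-positive against VIM-negative bottom cells, for the 15 highest and 15 lowest genes. Triangles are all 159 cells and circles the 153 cells without PECAM1 and CDH5. Most of the highest genes move to near 0 or below it without the 6 cells (FN1 to −1.0), ZEB1 to 1.22, and the lowest genes hardly move.

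The highest genes of the 153 cells, chosen after their values were seen, were LIX1L, TESC, SEMA3A, CCDC88A and ZEB1. In the upper bands of VIM-negative cells LIX1L stood at 5.98 and 6.54 CPM and TESC at 5.34 and 5.12 CPM. Both therefore met the 10 CPM minimum there only through the VIM-positive class. The same held in the top band for SEMA3A (9.43 CPM) and ZEB1 (9.65 CPM). The mean ratio includes the lowest band, so the order of these genes is not firm. CCDC88A, which encodes the actin-binding migration protein girdin, was at 41.1 CPM against 16.7 CPM, 3.71-fold higher in the middle band (2.97 to 4.61) and 2.39-fold higher in the top band (2.04 to 2.79). Its UMIs were found in 125 of 153 and 506 of 1205 cells. SEMA3A, a secreted semaphorin, was at 35.3 against 14.3 CPM but was detected in 40 of 153 cells, so few cells carried it. LIX1L was at 17.6 against 6.35 CPM and TESC at 14.2 against 5.69 CPM, 2.61-fold (2.07 to 3.29) and 2.40-fold higher (1.83 to 3.14) in the top band. LGALS1, which encodes galectin-1 and is common in mesenchymal cells, was at 2363 against 1717 CPM, short of the threshold in each upper band (1.49-fold and 1.31-fold).

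Some cell cycle genes of G2 and mitosis were higher. In the 153 cells 15 of 56 list genes were called higher and 0 lower, with a median of 0.48 against −0.01 for all genes tested (background 1.77% higher). With the lowest band left out 11 were higher and the median was 0.47, and with all 159 cells 8 were higher and the median was 0.38. BIRC5, the mitotic survivin, was at 312 against 199 CPM and 1.44-fold higher in the top band (1.37 to 1.51). PSRC1, a spindle protein, was at 36.9 against 20.2 CPM and 1.58-fold higher in that band (1.36 to 1.82). The median share of the list per cell was 9777 against 7940 CPM in the top band and 8389 against 5880 in the middle band, with 68.9% of the VIM-negative cells below the VIM-positive median in each.

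The G2/M list median changed sign with the VIM minimum in the lowest band, and kept its sign in the upper bands. With 2 or more VIM UMIs it was 0.57 in the middle band, 0.35 in the top band and 0.53 in the lowest band of the 153 cells. With 3 or more VIM UMIs, the list median was 0.75 in the middle band and 0.30 in the top band, but −1.12 in the lowest band, which then held 2 of the cells without PECAM1 and CDH5, and the mean ratios of PSRC1, CKAP2L and GTSE1 over the 89 cells of that minimum, PECAM1 and CDH5 cells included, turned negative. Of 42 S phase genes tested, 0 were higher and 1, CCNE2, was lower in the 153 cells (background 1.77% higher and 4.89% lower). The S phase list median was 0.13. Ratios were also taken separately in cells below and above each band's median G2/M share and averaged. PSRC1 and BIRC5 then turned to the lower side, but both belong to the list that made the split, so their shift cannot be read apart from it. Of the 39 named genes that were lower in all 159 cells, 37 passed the threshold again.

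Genes of cholesterol synthesis were lower in part. In the 153 cells 8 of 19 genes were called lower and 0 higher, with a median of −0.50, against a background of 4.89% lower. Without the lowest band 10 were lower (background 2.33%) and the median was −0.67, and with all 159 cells 11 were lower (background 4.46%). HMGCS1, a synthase early in the pathway, was at 64.1 against 133 CPM and 1.88-fold lower in the top band (1.70 to 2.08). INSIG1, a sterol sensor that restrains the pathway's activation, was at 26.9 against 62.5 CPM. SQLE and MSMO1 were 1.69-fold and 1.74-fold lower in the top band. By number of VIM UMIs, HMGCS1 stood at 133, 94.2, 72.1, 72.8, 51.0 and 12.7 CPM from 0 to 16 or more.

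YAP/TAZ target genes, read as a sign of mechanical signalling, had a list median near that of all genes outside the endothelial-marker cells. In the 153 cells AMOTL1, AMOTL2 and AXL were higher and AREG lower of 12 tested (background 1.77% higher and 4.89% lower). The list median was 0.09, against −0.01 for all genes tested. With all 159 cells 7 were higher (background 2.67%). Without the 6 cells and the lowest band 2 were higher (background 1.32%) and 0 lower. AREG, the EGF family ligand amphiregulin, was at 727 against 1096 CPM and 1.5-fold lower in the top band (1.46 to 1.55). Of the partial transition list, which holds genes of invading carcinoma fronts, LAMB3, PLAU and PLAUR were lower of 11 tested and 0 higher (background 4.89% lower). PLAUR, the urokinase receptor, was at 75.2 against 123 CPM and 1.54-fold lower in the top band (1.41 to 1.69). PLAU, urokinase itself, was at 27.9 against 34.5 CPM and not called without the lowest band.

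Single genes of other lists stood out. IL18, an inflammatory cytokine, was at 137 against 330 CPM and 2.36-fold lower in the top band (2.21 to 2.52). HMOX1, heme oxygenase 1, was at 27.6 against 69.6 CPM and 3.14-fold lower (2.68 to 3.71) in that band. ISG15, a ubiquitin-like interferon target, was at 263 against 433 CPM, and it was 1 of 3 lower genes among 8 tested interferon-stimulated ones, with IFI27 and IRF7 (background 4.89% lower). Without the lowest band ISG15 and IFITM3 were called of 9 tested, and IFI27 and IRF7 were not. In heat shock, glycolysis, nuclear respiratory chain, mitochondrially encoded and cytosolic ribosomal protein lists 0 genes were called in either direction in the 153 cells. The background was 1.77% higher and 4.89% lower. For the 14 heat shock genes tested, 0 calls is near that background, and an absence of change was not tested.

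Fibroblast and leukocyte genes were near absent from the 153 cells. The fibroblast list stood at 2.51 CPM, with 8 of 10 genes at 0, against 4.94 CPM in VIM-negative cells. The leukocyte list stood at 3.39 against 6.08 CPM, with 7 of 11 genes at 0. Smooth muscle and pericyte genes were detected in both classes, at 33.6 against 37.9 CPM, with 1 of 8 genes at 0 in the 153 cells. They were led by RGS5, and their range per cell was 0 to 490 CPM.

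The same rule found 192 VIM-positive cells in the stretched top library (2.11%) and 142 in the not stretched top library (1.49%). In those libraries the band over 50000 UMIs held 1 VIM-positive cell each, so the band of 10000 to 30000 UMIs was used, with 184 and 128 VIM-positive against 8129 and 8346 VIM-negative cells. In that band 232 of 8834 genes were called lower (2.63%) and 88 higher (0.996%) in the stretched top, and 352 of 9233 lower (3.81%) and 117 higher (1.27%) in the not stretched top. Over all 3 bands the shares were 6.1% lower and 4.3% higher of 7869 genes, and 10.5% lower and 2.53% higher of 8891, which rest on single cells in the top band.

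Epithelial genes were lower in VIM-positive cells of the top channel too. In each top library 9 of 14 tested genes were called lower and 0 higher (background 2.63% and 3.81% lower). The medians were −0.70 in the stretched and −0.63 in the not stretched library. CDH1 was 2.44-fold lower (1.86 to 3.27) in the stretched top and 2.72-fold lower (2.02 to 3.76) in the not stretched top. GRHL2 was 4.90-fold and 3.48-fold lower and EPCAM 1.43-fold and 1.38-fold lower, in the same order. ZEB1 was 2.02-fold higher (1.58 to 2.55) and 2.01-fold higher (1.51 to 2.64), and CCDC88A was 1.57-fold and 1.83-fold higher. AXL was 1.38-fold higher (1.09 to 1.72) in the stretched top and at 23.8 against 24.4 CPM in the not stretched top.

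S100A14 was 2.70-fold (2.43 to 3.00) and 2.58-fold lower (2.31 to 2.88) in the top libraries, beside 9.62-fold and 4.53-fold in the upper bands of the bottom library. The VIM-positive cells compared differed in depth, with medians of 16308 UMIs in the stretched top, 17176 in the not stretched top, and 43134 and 65780 in the bottom bands. The part of depth in the size of these ratios was not tested. Of 18 cholesterol genes 1 (INSIG1) and 0 were called lower in the 10000 to 30000 band of the top libraries (background 2.63% and 3.81%). Their medians were −0.23 and −0.13, beside −0.27 in the lowest band of the bottom library. Over all 3 bands 8 of 17 cholesterol genes were lower in the stretched top (background 6.1%) and 4 of 18 in the not stretched top (background 10.5%). Those counts rest in part on 1 VIM-positive cell per library in the band over 50000 UMIs. Of 56 G2/M genes 19 and 28 were called higher in the 10000 to 30000 band (background 0.996% and 1.27%), with medians of 0.51 and 0.59.

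In the top libraries apolipoprotein and enterocyte genes moved with the VIM class. Of 8 tested genes 7 were lower in VIM-positive cells in each top library (APOA1, APOA2, APOC3, APOE, FABP1, TTR and AGR2), with medians of −2.62 and −1.92. FN1 was 2.70-fold and 3.23-fold lower there. In the bottom library 1 gene of that list was tested and it was not called. The part of these genes in the other differences of the top libraries was not tested.

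Of the 393 genes lower in the 153 bottom cells, 378 were tested in the stretched top band and 65 were called lower there (17.2% of them, and 28.0% of that library's 232). In the not stretched top 66 of 386 were (17.1%, and 18.8% of its 352). Of the 142 higher genes, 29 of 135 were called higher in the stretched top (21.5%, and 33.0% of its 88) and 32 of 137 in the not stretched top (23.4%, and 27.4% of its 117). Over all genes tested, 2.63% were lower and 0.996% higher in the stretched top, and 3.81% and 1.27% in the not stretched top. The comparisons share no cells. A ratio of the same sign was found for 330 and 325 of the lower genes and for 117 and 113 of the higher ones. The median log2 ratio of all genes tested was −0.014 in the stretched top band and −0.022 in the not stretched top band.

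**Figure D5:**
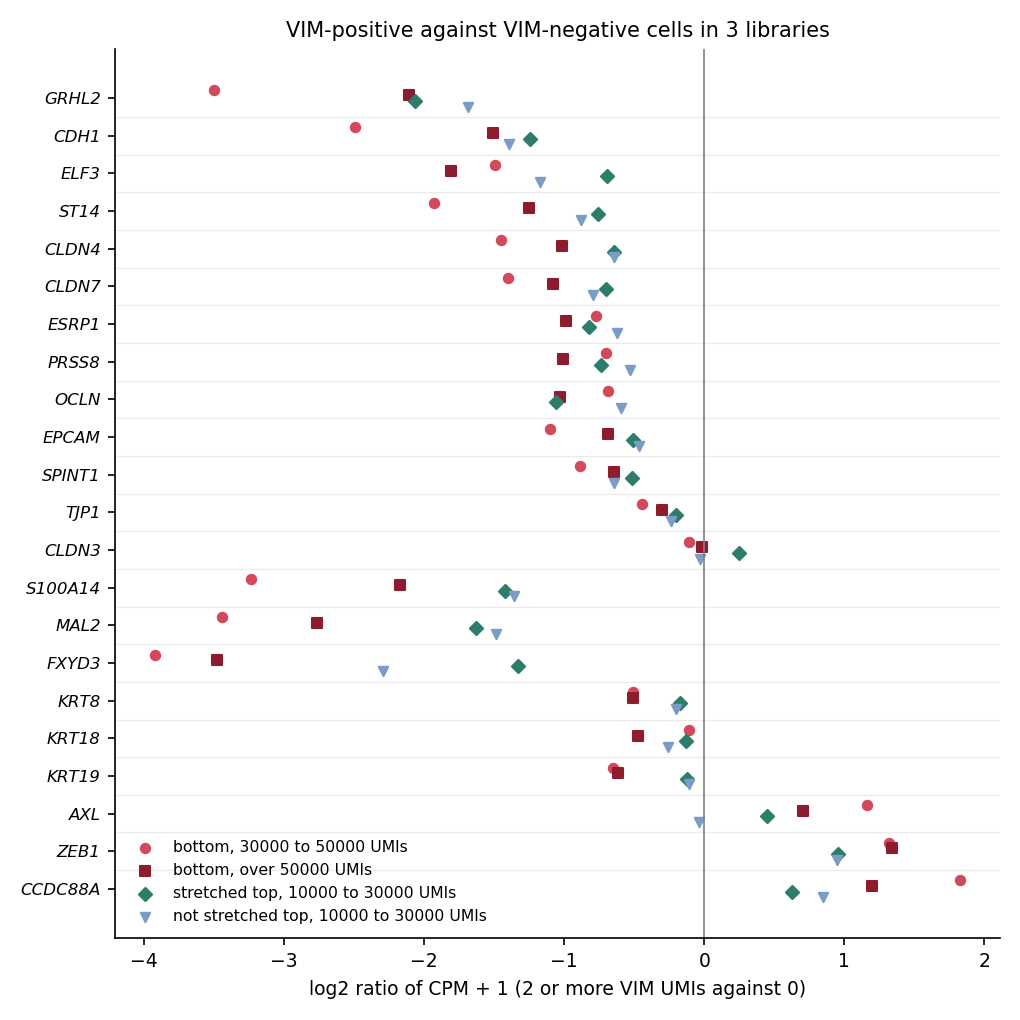
Log2 ratio (CPM plus 1), VIM-positive against VIM-negative cells, for epithelial, keratin and mesenchymal genes in the 2 upper bands of the bottom library (without the 6 cells) and the 10000 to 30000 band of each top library. CDH1 and GRHL2 are left of 0 in all 4 comparisons, ZEB1 and CCDC88A are right of 0, and KRT8, KRT18 and KRT19 lie between −0.65 and 0.

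Barcodes of this chemistry can occur in more than 1 library. The top library with stretch shared 61 of the bottom barcodes and the one without stretch 99, among them 8 and 19 of the 159 VIM-positive cells and 33 and 55 of the 1205 VIM-negative ones. None of the 159 shared its barcode with a top cell that passed the limits of depth and mitochondrial share, and none of the 6 endothelial-marker cells shared one at all.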

How the data were processed

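Each library was deposited as a matrix of UMI counts per gene and barcode, raw and unscaled, made with Cell Ranger 7.0.0 per the file headers. The submitters' processing notes name hg38 as the build; an annotation version is not given in the sources used here. The matrices list 19912 features and barcodes of at least 500 UMIs, and no further filter of the authors is recorded there. The bottom library held 3513 barcodes, the stretched top 25169 and the not stretched top 26106. The 1550, 9094 and 9538 cells that passed the limits held 75333052, 140415001 and 165596784 UMIs, so 3 counts, the floor used where a gene was at 0, are a far smaller share of a pooled library than of a band.

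UMIs of a gene were summed over the cells of a class within a band and divided by all UMIs of the class to give CPM. Ratios are on the log2 scale after 1 CPM was added to both classes. Genes needed 10 CPM or more in either class in every band, and VIM was left out. A call needs a mean over the bands of at least 1.5-fold and 1 sign in all bands. Folds carry exact conditional binomial intervals, CPM exact Poisson and shares exact Clopper-Pearson intervals, all at 95% and for counting error only. For shares of cells with a UMI, each cell was thinned to 10000 UMIs with a fixed seed. The ratio step was tested on simulated counts with 200 changed genes, for the bottom comparison without the PECAM1 and CDH5 cells. Of 7843 unchanged genes 129 were called. Calls were made for 11 of 67 genes changed 1.25-fold, 61 of 67 changed 2.0-fold and 64 of 66 changed 4.0-fold. Unchanged genes can therefore be among the genes called in that comparison. No doublets were removed and no caller was run.

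The members, the 33 gene lists and the alternatives were chosen with earlier results of these data known. Named genes were VIM, EPCAM, the 15 highest and 15 lowest by mean ratio in all 159 cells, up to 4 of the most changed members of each list, and the members of the intermediate filament and mesenchymal lists. A few genes are not reported here; they were left out of the lists and of the ranking for named genes, and they stay in the counts over all genes. Genes named from the 153 cells, and further members of the epithelial, cholesterol, G2/M, YAP/TAZ and partial transition lists, were added after values were seen. The PECAM1 and CDH5 criterion, and leaving out the lowest band, were also added after the data were seen. Other alternatives changed the mitochondrial limit, the VIM minimum, the comparison cells, cell weights, totals, centring, the CPM minimum, the CPM added, the fold, the bands and the deepest cells, or split cells by G2/M share. Gene positions came from GENCODE release 29, and promoter windows from RefSeq. Python 3.11.15 was used with numpy 2.4.6, scipy 1.17.1, pandas 2.3.3 and matplotlib 3.10.9.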

Additional observations from a re-analysis of the deposited data

How the results depend on the processing

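The 159 VIM-positive bottom cells became 89 with 3 or more VIM UMIs and 345 with 1 or more. Leaving out every cell with a UMI of any endothelial list gene left 1, since EGFL7 is detected in nearly all bottom cells; it fills 1 of the 3 bands, so no count over the 3 bands is given for it. In the bottom library 216 genes were higher and 361 lower. These counts were 387 and 568 with 3 or more VIM UMIs, 54 and 116 with 1 or more, 116 and 215 at a minimum of 20 CPM, 701 and 762 at a lower fold threshold, 134 and 180 without the lowest band, and 107 and 188 without that band and the 6 cells. Narrower bands gave 109 higher, leaving out the 6 cells gave 142 higher, and splitting by G2/M share gave 628 lower. In the stretched top (338 higher, 480 lower) the counts were 597 higher with 3 or more VIM UMIs, 219 and 249 at 20 CPM, 70 and 221 in narrower bands, 654 higher at a lower fold threshold, and 88 and 232 in the 10000 to 30000 band alone. There, 833 were lower at 5 CPM and 899 with totals without mitochondrial and ribosomal protein genes, which took the share of higher calls from 41.3% to 24.3%. In the not stretched top (225 higher, 938 lower) they were 72 and 266 with 1 or more VIM UMIs, 141 and 562 at 20 CPM, 72 and 436 in narrower bands, 684 and 1423 at a lower fold threshold, and 117 and 352 in the 10000 to 30000 band alone. Leaving out the deepest cells or any cell with an endothelial UMI, and splitting by G2/M share, left fewer than 3 bands with VIM-positive cells in the top libraries, so their counts are not set beside those over 3 bands.

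Without the 6 cells, mean log2 ratios that had been positive became −0.11 for GNG11, −0.025 for EFEMP1, −0.14 for ARHGDIB, −1.0 for FN1, −0.36 for MECOM, −0.54 for HSPG2, −0.37 for ITGA5 and −0.046 for CYR61. With the lowest band left out as well, they were −0.16, −0.038, −0.088, −0.32, −0.17 and −0.50 for the first 6 of these genes, −0.005 for ITGA5, −0.033 for CYR61 and −0.08 for TPM1. With 3 or more VIM UMIs PSRC1 was at −0.68, CKAP2L at −0.68 and GTSE1 at −1.11. Splitting by G2/M share gave −0.059 for PSRC1 and −0.46 for BIRC5, both members of the list that made the split. With 1 or more VIM UMIs PLAU was at 0.23. Of 35 named higher genes 10 passed the threshold without the 6 cells, and of 39 named lower genes 37 did. Over 17 alternatives the epithelial median ranged from −2.005 to −0.83, the cholesterol median from −1.11 to −0.42 and the G2/M median from −0.22 to 0.48. No paired analysis was possible because each group has 1 library and the result comes from no test.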

Other observations

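A pair of genes outside the lists above was picked after their values were seen, because their level in the bottom library followed the VIM UMIs of the cells. ATOX1, a copper chaperone of the cytosol, was at 149 CPM in the bottom cells with 0 VIM UMIs (95% counting interval 146 to 153) and at 199.9 CPM in those with 1. Among cells without PECAM1 and CDH5 UMIs it was at 212 CPM with 2 VIM UMIs, at 242 CPM with 3, at 334 CPM with 4 to 15 and at 403 CPM with 16 or more (343 to 470). MEF2C, a MADS-box transcription factor, went the other way, from 89.2 CPM with 0 VIM UMIs to 41.4 CPM with 1, 21.7 CPM with 2, 13.99 CPM with 3 and 16.04 CPM with 4 to 15. In the 6 cells with 16 or more VIM UMIs no MEF2C UMI was counted, which allows up to 9.34 CPM by the counting interval. In all 3 UMI bands the direction was the same for both genes: ATOX1 was at 261 against 162 CPM and MEF2C at 16.7 against 73.6 CPM in the band above 50000 UMIs. The intervals cover counting error only, the classes come from 1 library, and no difference was tested.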
